A study of Saccharomyces cerevisiae with 12 samples.

Results

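Yeast cells copy their chromosomes with a set of proteins that load and open the replicative helicase, synthesize and join the new strands, supply deoxynucleotides and hold the sister chromatids together. The RNA levels of 53 genes for this DNA replication and cohesion machinery were examined in bmh1∆ and bmh2∆ cells with and without potassium. The members were taken from a list of 54 gene names, of which 53 were found among the 6053 genes of the table, and RFA3 was not analysed here. In potassium-starved bmh2∆ cells 8 of the 53 genes were lower (2.63% of all genes tested), among them POL30, MCD1, CDC21 and POL1, by 2.42-fold to 13.8-fold in the group means, and none was higher. When any one of the 6 bmh2∆ libraries was left out, 0 of the 8 passed the test, where 0.0568% to 0.663% of all genes were lower. In bmh1∆ cells no member passed when all libraries were used. When the 2 deepest libraries were left out 6 were lower (1.08% of all genes), with 1 library left at 0 mM KCl, whose spread was taken from the other groups.

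Both strains were single deletions in BY4741, a haploid MATa laboratory strain, and each lacked one of the genes BMH1 and BMH2, which encode the yeast 14-3-3 proteins. Cultures in growth were washed and kept with 50 or 0 mM KCl for 60 min before freezing. Transcript levels come from SAGE (serial analysis of gene expression) libraries, in which the sequencer counts a short tag next to the most 3′ CATG of each polyadenylated transcript. Each of the 4 groups of strain and KCl had 3 libraries, and the values are RPM, reads of a gene per 1000000 reads. Wild type BY4741 was not used here, so all comparisons are within or between the deletion strains.

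During late G1 phase most genes of the replication machinery are transcribed in a burst, which provides the proteins for the following S phase. The burst depends on MBF, a complex of Mbp1 and Swi6 that binds the MluI cell cycle box ACGCGT, and on the related factor SBF with Swi4. Genes of origin recognition and of the MCM helicase are known to follow other programs in part, with MCM transcripts peaking from mitosis to early G1. In a culture, a lower level can come from fewer cells in late G1 and S phase or from less RNA in each such cell, and these cannot be told apart in bulk RNA.

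The MluI cell cycle box was found between 300 and 51 bases before the start codon of 28 of the 53 genes (52.8%), against 197 of 6001 protein-coding genes (3.28%). The box is its own reverse complement, so a match counts on both strands. It was in this window of all 8 genes that were lower in starved bmh2∆ cells and of 20 of the other 45 members (44.4%). These 8 windows are shown because their genes carry the starvation result. Each stretch runs 5′ to 3′ toward the start codon on the coding strand, with up to 12 bases on either side, from the RefSeq S288C genome of build R64, and the capitals mark the box.
POL1 (chrXIV:429867-429931, + strand): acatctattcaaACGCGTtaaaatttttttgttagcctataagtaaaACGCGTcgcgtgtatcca
POL30 (chrII:425944-425973, - strand): ccaaaacgcgaaACGCGTaacttttttttt
CDC45 (chrXII:346074-346133, - strand): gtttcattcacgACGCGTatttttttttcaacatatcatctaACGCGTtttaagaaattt
CTF4 (chrXVI:799099-799128, + strand): ctgtttaacgcgACGCGTaataaagtttcc
TOF1 (chrXIV:122716-122764, + strand): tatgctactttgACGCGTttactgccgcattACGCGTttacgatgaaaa
MRC1 (chrIII:22204-22262, - strand): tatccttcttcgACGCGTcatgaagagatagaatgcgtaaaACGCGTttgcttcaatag
CDC21 (chrXV:467693-467759, - strand): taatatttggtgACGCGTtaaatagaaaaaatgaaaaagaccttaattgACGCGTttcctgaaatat
MCD1 (chrIV:444383-444408, + strand): gaggagggACGCGTcgagaaaatcgc
POL1, CDC45, TOF1, MRC1 and CDC21 held 2 boxes, and the others held 1. The forms of the Swi4 cell cycle box were rarer in the members: CGCGAAA, searched on both strands, was in 7 windows (13.2%, against 3.83% of all genes) and CACGAAA in 4 (7.55%, against 3.93%). A match of letters is a description of the window and no binding was measured.

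The labels were checked with marker genes. BMH2 was at 197 to 505 RPM in bmh1∆ and at most 0.291 RPM in bmh2∆, whereas BMH1 tags were found in every library (536 to 5390 RPM). By the notes of the study, BMH1 tags in bmh1∆ come from sequence beyond the 3′ end of the coding region, so they check nothing, and the BMH1 deletion was not checked here. Summed over 6 a-cell genes the level in bmh1∆ was 2650 to 3300 RPM at 50 mM and 6450 to 9430 RPM at 0 mM KCl, and in bmh2∆ 4680 to 6020 and 13100 to 16100 RPM, so it was higher in all starved libraries of each strain. Summed over 4 alpha-cell genes it was 23.2 to 25.0 and 30.4 to 37.2 RPM in bmh1∆, and in bmh2∆ 10.3 to 14.0 and 39.5 to 70.1 RPM. Most of this was SAG1, with MF(ALPHA)1 and STE3 at most 3.5 and 6.09 RPM in any library. URA3, which BY4741 lacks, was at most 0.328 RPM and HIS3 was at 2.21 to 25.2 RPM. The part of these markers in the results was not tested.

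Some properties of the libraries touch the results. First, 4 bmh1∆ libraries came from lane 1 and are named by index (GGATAT and CTATAG at 50 mM, GTCACG and TGCACT at 0 mM KCl). B50 and B0 of bmh1∆ and the 6 bmh2∆ libraries (C50, D50, E50, C0, D0, E0) are named by letter. The library names give lanes but no run, and sequencing run here means this split by naming. Strain and this split are told apart only through B50 (lane 7) and B0 (lane 6). Within bmh2∆, every library at 50 mM KCl was sequenced on lane 5. Of the starved bmh2∆ libraries only C0 shared that lane, and the others were sequenced on lane 6. The starvation comparison in bmh2∆ is thus partly a comparison of lanes, which only C0 can separate from KCl. Second, if the smallest step of the values is 1 read, GTCACG and B0 are the deepest libraries, with 73863623 and 107579363 reads against 6237952 to 19334173 in the other 10. In such steps B0 was below the sum of the other 7 lettered libraries for 0 of 6053 genes, and GTCACG below the sum of the other 3 lane 1 libraries for 1 gene. Whether these libraries hold reads of the others was not tested. The counts of members called and the medians for bmh1∆ at 0 mM KCl are therefore given with and without them. Counts without overlap, unadjusted counts of the starvation change, the SD and the medians after scaling include them.

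The first question was how replication genes respond to potassium starvation in bmh2∆ cells. Of the 53 members, all of which passed the filter of 3 RPM in 3 libraries, 8 (15.1%) were lower at 0 mM than at 50 mM KCl and 0 were higher (1 at an unadjusted p under 0.05) by limma on log2(RPM + 1) with an adjusted p under 0.05 (Benjamini-Hochberg over 5278 genes). Of all genes tested 2.63% were lower and 2.90% higher. The log2 change was below 0 for 44 of the 53 members (46.7% of all genes), with a median of -0.71 against 0.05 for all genes. In 31 members every starved library was below every library at 50 mM KCl (20.5% of all genes), and in 3 members, ORC4, ORC5 and ORC6, every starved library was above (20.2% of all genes). The call rests on 3 libraries per group. Without any one of the 6 bmh2∆ libraries 0 members passed, where 0.0568% to 0.663% of all genes were lower. The limma adjusted p-values of these 8 genes were then at most 0.141. Without B50 or without TGCACT of bmh1∆, which share the estimate of the spread, 14 members were lower (6.10% and 3.64% of all genes). Fitted on the bmh2∆ groups alone 23 members were lower and 2 higher, the 8 among the 23, where 12.1% of all genes were lower and 11.8% higher.

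**Figure D1:**
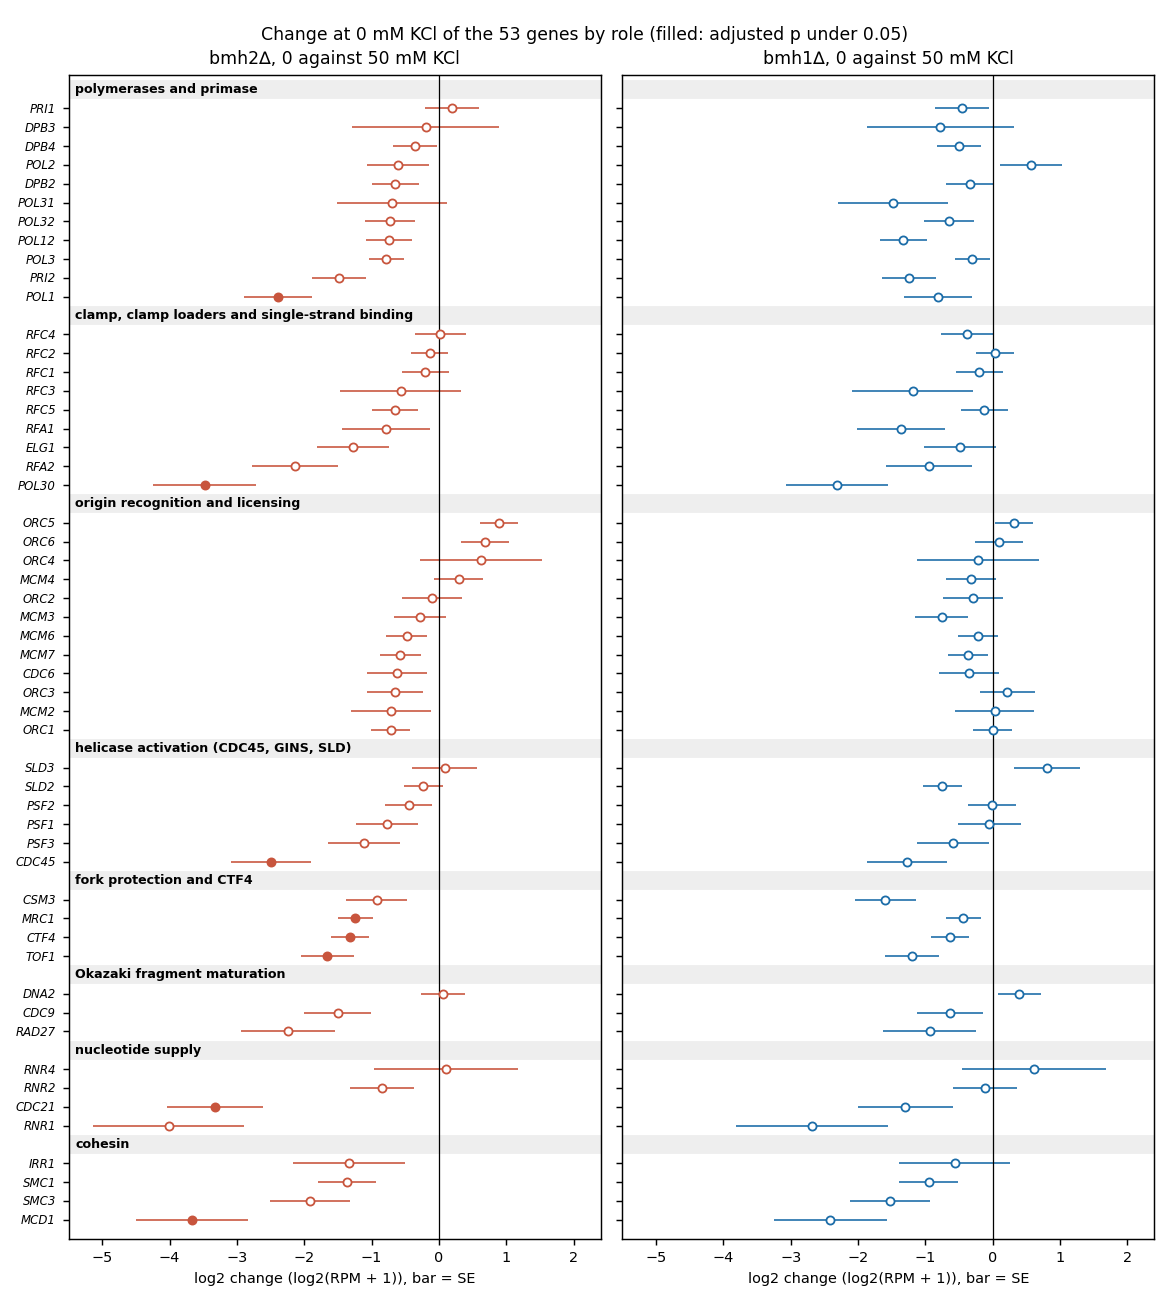
Log2 change at 0 against 50 mM KCl of each of the 53 genes in bmh2∆ (left) and bmh1∆ (right), on the log2(RPM + 1) scale, grouped by role; points are fitted changes, bars the SE, and filled points have an adjusted p under 0.05. In bmh2∆ 44 of the 53 points lie below 0 and 8 are filled, while in bmh1∆ 43 lie below 0 and none is filled.

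Among the polymerases and primase, 1 of 11 genes was lower. POL1, the catalytic subunit of DNA polymerase alpha, which starts each new strand, was at 34.5, 40.7 and 46.1 RPM in bmh2∆ at 50 mM KCl and at 5.88, 7.20 and 7.57 RPM at 0 mM KCl. All starved libraries lay far below all the others, a 5.87-fold lower mean (log2 change -2.39, SE 0.50, limma adjusted p = 0.022). The other subunits of this enzyme differed from POL1 in size: the primase subunit PRI2 had a log2 change of -1.48 (adjusted p = 0.056), the B subunit POL12 of -0.74 (adjusted p = 0.28) and the primase subunit PRI1 of 0.19 (adjusted p = 0.88). POL3, the catalytic subunit of polymerase delta, did not overlap between groups (log2 change -0.78, adjusted p = 0.11), and POL2, that of polymerase epsilon, did (-0.61, adjusted p = 0.56). The group median was -0.70.

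In the group of the clamp, its loaders and the single-strand binding protein, the clamp itself was lower. POL30 encodes PCNA, the ring that tethers polymerases to DNA, and was at 129.5, 105.3 and 99.5 RPM at 50 mM KCl and at 9.59, 12.5 and 6.03 RPM at 0 mM KCl. The starved mean was 11.9-fold lower and no library overlapped (log2 change -3.48, SE 0.76, limma adjusted p = 0.025). The 5 subunits of the clamp loader RFC, which opens this ring, had smaller log2 changes than POL30, between -0.65 and 0.02. Their limma adjusted p-values were at least 0.349. Of these only RFC5, at -0.65, was lower in every starved library (20.5% of all genes). RFA2, a subunit of the single-strand binding protein RPA, had a log2 change of -2.14 (adjusted p = 0.083) and RFA1, its largest subunit, of -0.78 (adjusted p = 0.61). ELG1, which takes part in unloading PCNA, was at -1.28 (adjusted p = 0.22).

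The 12 genes of origin recognition and licensing had the median closest to 0 of the 8 roles (-0.38), and none passed. ORC5, a subunit of the origin recognition complex, was at 20.02, 21.02 and 21.93 RPM at 50 mM KCl and at 45.9, 39.3 and 34.4 RPM at 0 mM KCl. All starved libraries were above the others, a ratio of 1.90, yet the test was not passed (log2 change 0.89, SE 0.28, limma adjusted p = 0.099). In the bmh2∆ groups alone its limma adjusted p was 0.014, where 11.8% of all genes were higher. With 1 library left out of the main fit, ORC5 passed in 1 of 12 fits. ORC4 and ORC6 were likewise higher without overlap, with log2 changes of 0.63 and 0.68. In 5 genes of this role, ORC1, ORC3, CDC6, MCM6 and MCM7, all starved libraries were lower instead (20.5% of all genes). Their log2 changes were from -0.71 to -0.48. The 5 MCM genes, subunits of the replicative helicase ring, lay between -0.71 and 0.29 with adjusted p-values of at least 0.345. CDC6, the loader of that ring, was at -0.62 (adjusted p = 0.54).

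Of the 6 genes that turn the loaded helicase on, CDC45 was lower. It encodes the partner that joins the MCM ring and the GINS complex in the active helicase, and was at 17.5, 22.5 and 21.2 RPM at 50 mM KCl and at 2.47, 3.18 and 2.79 RPM at 0 mM KCl. The starved libraries were tightly grouped and 7.26-fold lower in the mean (log2 change -2.49, SE 0.59, limma adjusted p = 0.036). The GINS genes PSF1, PSF2 and PSF3 were each lower in all starved libraries (20.5% of all genes). Their log2 changes, between -1.11 and -0.45, did not pass (limma adjusted p at least 0.294). SLD2 and SLD3, which carry the S phase kinase signal to the helicase, were at -0.23 and 0.09.

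The fork protection genes and CTF4 had 3 calls among 4 genes, the largest share in this fit, where 2.63% of all genes were lower. In the bmh2∆ groups alone it was 3 of 4 again, against 4 of 4 cohesin genes, where 12.1% of all genes were lower. CTF4, which couples the helicase to polymerase alpha and acts in cohesion, was at 28.0, 37.7 and 33.0 RPM at 50 mM KCl and at 14.8, 10.9 and 12.3 RPM at 0 mM KCl (log2 change -1.31, SE 0.28, limma adjusted p = 0.024). TOF1, which pauses and stabilizes forks together with CSM3, went from 21.4, 27.3 and 27.1 RPM to 8.79, 7.98 and 5.51 RPM (log2 change -1.65, SE 0.40, limma adjusted p = 0.036). MRC1, the mediator of the replication checkpoint, went from 55.0, 45.5 and 54.7 RPM to 18.01, 24.3 and 21.8 RPM (log2 change -1.24, SE 0.26, limma adjusted p = 0.021). For each of these genes the starved libraries lay below all the others, with means 2.60-fold, 3.41-fold and 2.42-fold lower. CSM3 did not overlap either, with a log2 change of -0.92 (adjusted p = 0.31).

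Genes that mature Okazaki fragments, the short pieces of the lagging strand, did not pass with all groups in the fit. RAD27, the flap endonuclease, was at 46.6, 58.7 and 80.8 RPM at 50 mM KCl and at 14.2, 11.1 and 10.9 RPM at 0 mM KCl, with no overlap (log2 change -2.24, SE 0.69, limma adjusted p = 0.091). The DNA ligase gene CDC9 also did not overlap (-1.501, adjusted p = 0.11). DNA2, a nuclease and helicase of the same step, was at 0.06 (adjusted p = 0.96). In the bmh2∆ groups alone the limma adjusted p was 0.00048 for RAD27 and 0.0016 for CDC9, where 12.1% of all genes were lower. With 1 library left out of the main fit, RAD27 passed in 1 of 12 fits.

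Among 4 genes of nucleotide supply the values ranged most widely. CDC21, thymidylate synthase, was at 68.2, 105.0 and 93.5 RPM at 50 mM KCl and at 8.57, 4.72 and 11.5 RPM at 0 mM KCl. No library overlapped and the mean was 10.7-fold lower (log2 change -3.33, SE 0.71, limma adjusted p = 0.023). RNR1, the large subunit of ribonucleotide reductase, went from 30.5, 56.9 and 25.6 RPM to 1.308, 1.084 and 1.397 RPM, which is the largest change of any member, a 29.8-fold lower mean. It did not pass (log2 change -4.01, SE 1.13, limma adjusted p = 0.064). The bmh1∆ libraries, which share the estimate of the spread, lay between 6.92 and 554.9 RPM. In the bmh2∆ groups alone the limma adjusted p of RNR1 was 7.7e-05, where 12.1% of all genes were lower. With 1 library left out of the main fit, RNR1 passed in 3 of 12 fits. The small subunit genes RNR2 and RNR4 were at -0.84 and 0.11 (adjusted p = 0.39 and 0.98).

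All 4 cohesin genes had every starved library below every library at 50 mM KCl (20.5% of all genes). MCD1, the kleisin subunit that closes the cohesin ring and is cut at anaphase, was at 110.6, 107.8 and 117.4 RPM at 50 mM KCl and at 8.57, 10.4 and 5.44 RPM at 0 mM KCl. This is a 13.8-fold lower mean, the largest among the members that passed (log2 change -3.67, SE 0.83, limma adjusted p = 0.030). The ring subunits SMC1 and SMC3 were at -1.36 (adjusted p = 0.10) and -1.91 (adjusted p = 0.093), and the accessory subunit IRR1 at -1.33 (adjusted p = 0.45). In the bmh2∆ groups alone all of them passed, with limma adjusted p-values of 0.0033, 0.0016 and 0.0044, where 12.1% of all genes were lower.

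**Figure D2:**
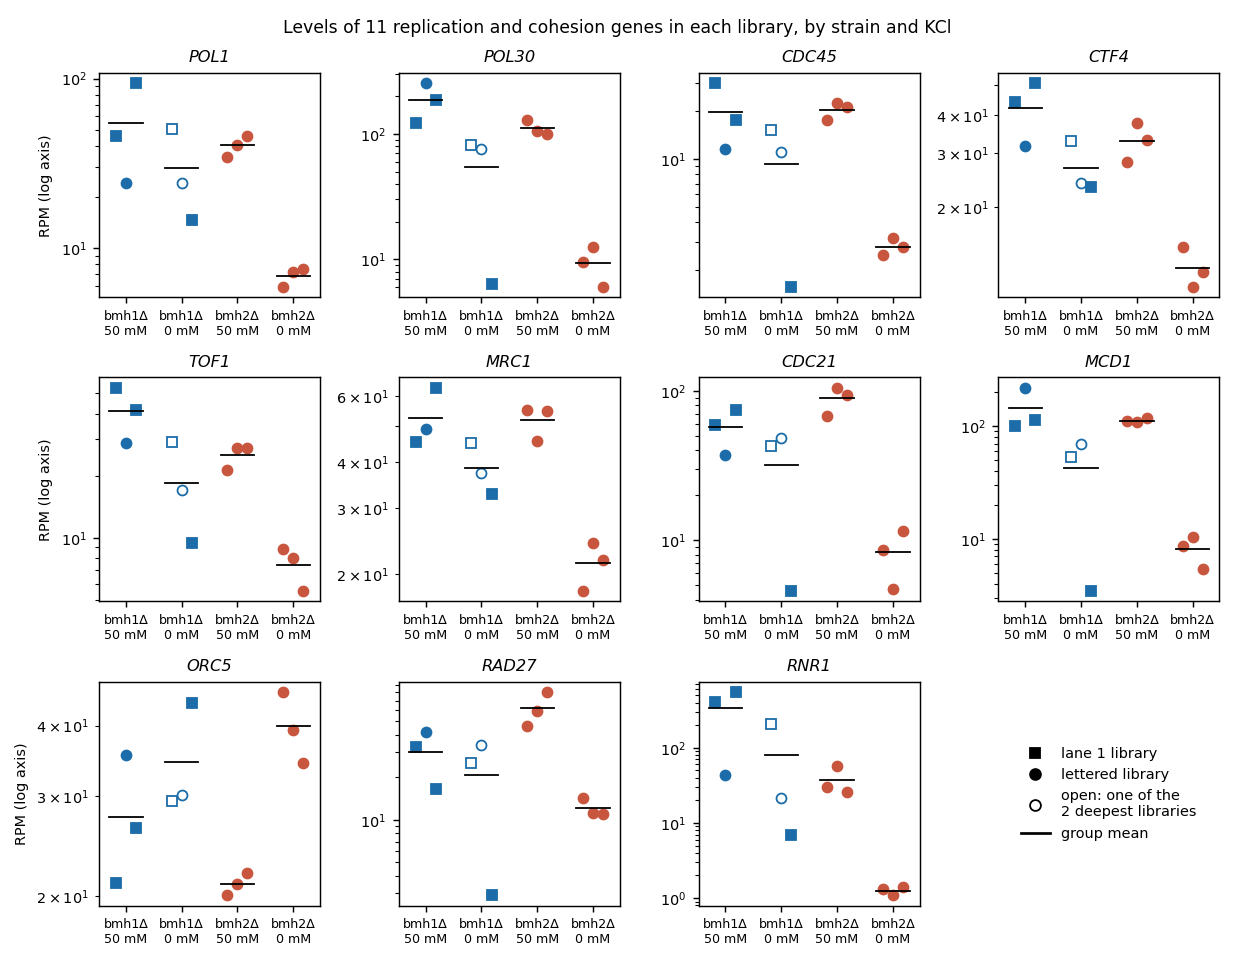
RPM (log axis) in each library for the 8 genes that passed in bmh2∆ and for ORC5, RAD27 and RNR1, by strain and KCl; squares are lane 1 and circles lettered libraries, open symbols are GTCACG and B0, and lines are group means. In bmh2∆ (red) the 3 libraries of each KCl group sit apart for all 11 genes, whereas in bmh1∆ (blue) the open symbols at 0 mM KCl lie between TGCACT and the 50 mM KCl mean for the first 8 genes shown.

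The changes were set beside the number of MluI cell cycle boxes, with no test. The 10 members with 2 or more boxes had a median log2 change of -1.89 in bmh2∆, and the 28 members with any box one of -1.29, with 27 below 0 and 22 lower without overlap. The 25 members without a box in the window had a median of -0.28, with 17 below 0, 9 lower without overlap and 3 higher without overlap (20.5% and 20.2% of all genes). RNR1 was the gene with the largest change and had no box in this window. The boxes were unevenly spread over the roles, with 8 of 11 polymerase and primase genes, 4 of 4 fork protection genes, 4 of 4 cohesin genes and 1 of 12 licensing genes holding one, so box and role cannot be told apart here. Outside the members, 147 tested genes with a box had a median of -0.60 and 6.12% were lower. The 4869 genes without one had a median of 0.07 and 2.30% were lower. Only the members were left out here, so other replication and cohesion genes can be among the 147.

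**Figure D3:**
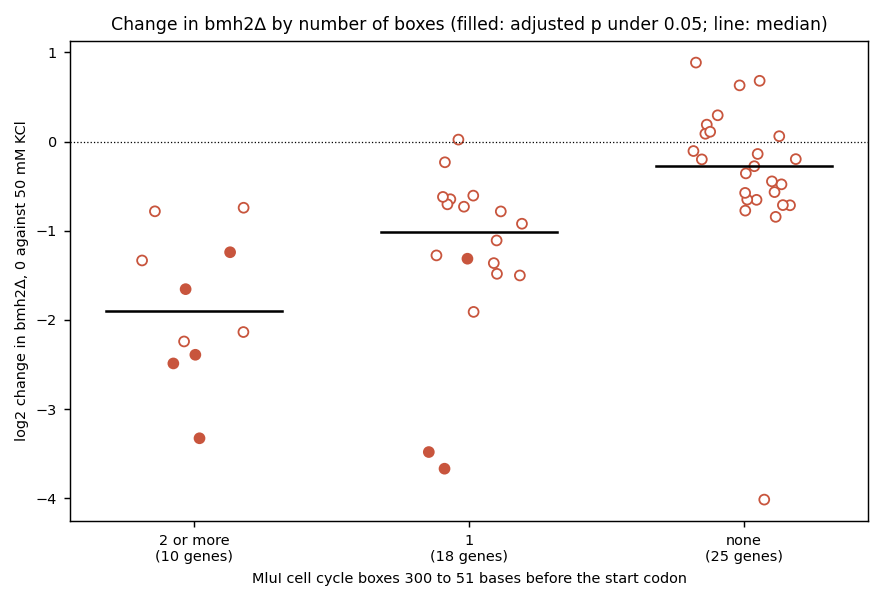
Log2 change in bmh2∆ at 0 against 50 mM KCl (log2(RPM + 1) scale) of each member by the number of MluI cell cycle boxes in the window 300 to 51 bases before its start codon; lines are medians and filled points have an adjusted p under 0.05. All 8 filled points lie in the columns with boxes, and the lowest point, RNR1, lies in the column without.

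Other genes of the pathway and its regulators were counted in the same comparison. Of 33 tested genes from a list of 36 further replication and cohesion genes, 4 were lower (12.1%) and 1 was higher (3.03%), against 2.63% and 2.90% of all genes. The lower genes were the GINS subunit SLD5 (log2 change -1.07, limma adjusted p = 0.040), the cohesion clamp loader CTF18 (-1.99, 0.040), the securin PDS1 (-2.37, 0.030) and the checkpoint kinase DUN1 (-2.31, 0.040). MCM10, which acts in helicase activation, was higher (log2 change 1.43, limma adjusted p = 0.021). It was at 2.49 to 2.80 RPM at 50 mM KCl and at 6.91 to 9.99 RPM at 0 mM KCl. At 50 mM KCl only GGATAT of bmh1∆ (3.207 RPM) reached the 3 RPM of the filter. MCM10 was thus tested only through the starved libraries, where it is high, so its call is not independent of the filter. Of 7 subunits and regulators of MBF and SBF, only NRM1, a repressor of MBF targets that is itself a target, passed, at 17.2 to 25.8 RPM and 2.06 to 2.76 RPM (log2 change -2.68, limma adjusted p = 0.017). SWI4 was at -1.80 (adjusted p = 0.15), MBP1 at -0.58 (adjusted p = 0.43) and the G1 cyclin gene CLN3 at 1.10 (adjusted p = 0.64).

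The same question was asked for bmh1∆. With all libraries 0 of 53 members passed in either direction, where 0.966% of all genes were called, all of them higher, and 10 members had an unadjusted limma p under 0.05, all lower (11.7% of all genes, in either direction). The log2 change was below 0 for 43 members (39.3% of all genes), with a median of -0.49 against 0.14 for all genes. Quantile normalization and median-of-ratios scaling moved the median of all genes to -0.03 and that of the members to -0.64 and -0.67. The groups did not overlap for 8 members, all lower (3.16% of all genes lower and 9.44% higher), and 6 of these also did not overlap in bmh2∆. The libraries spread more in bmh1∆, with a median SD of the members on the log2(RPM + 1) scale of 0.52 and 0.58 at 50 and 0 mM KCl, against 0.22 and 0.31 in bmh2∆.

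The spread at 0 mM KCl followed the libraries. POL30 was at 121.1, 251.5 and 185.7 RPM at 50 mM KCl (GGATAT, B50, CTATAG) and at 81.3, 76.3 and 6.40 RPM at 0 mM KCl (GTCACG, B0, TGCACT). MCD1 was at 100.5, 219.5 and 113.4 RPM and at 53.4, 69.7 and 3.42 RPM in the same order. For both genes the starved libraries were all lower, but GTCACG and B0 lay far above TGCACT. CDC21 was at 59.4, 37.4 and 74.6 RPM at 50 mM KCl and at 42.4, 48.0 and 4.54 RPM at 0 mM KCl, and CDC45 was at 29.8, 11.5 and 17.5 RPM and at 15.3, 10.99 and 1.56 RPM. For CDC21 TGCACT alone, and for CDC45 TGCACT and by a small margin B0, lay below all libraries at 50 mM KCl. TGCACT was the lowest of the 6 bmh1∆ libraries for 31 of 53 members (58.5%, against 18.7% of all genes), and for 23 members both GTCACG and B0 lay between TGCACT and the 50 mM KCl mean (43.4%, against 13.6% of all genes).

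Without GTCACG and B0, 6 members were lower in bmh1∆ (11.3%, against 1.08% of all genes) and 0 were higher, and the median of the members was -0.75 against 0.17 for all genes. The 0 mM KCl group is then TGCACT alone, whose spread is taken to be that of the other groups. The 6 were MCD1 (log2 change -4.95, SE 0.52, limma adjusted p = 0.0021), POL30 (-4.60, SE 0.52, adjusted p = 0.0032), CDC21 (-3.34, SE 0.56, adjusted p = 0.025), CDC45 (-2.91, SE 0.51, adjusted p = 0.030), RAD27 (-2.91, SE 0.55, adjusted p = 0.034) and POL12 (-2.12, SE 0.40, adjusted p = 0.033). Of these MCD1, POL30, CDC21 and CDC45 were among the 8 that were lower in bmh2∆. With the sequencing run as a term and all libraries kept, 5 members were lower in bmh1∆, namely POL12, POL30, CSM3, SMC3 and MCD1, where 1.17% of all genes were lower.

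**Figure D4:**
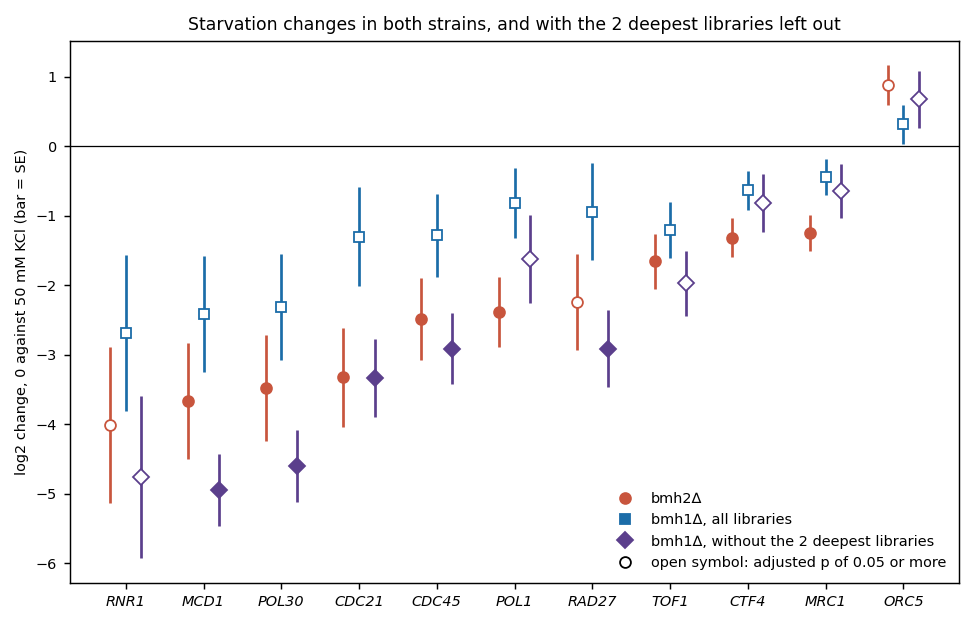
Log2 change at 0 against 50 mM KCl (log2(RPM + 1) scale, bars SE) of 11 genes in bmh2∆ (circles), in bmh1∆ with all libraries (squares) and in bmh1∆ without GTCACG and B0 (diamonds); filled symbols have an adjusted p under 0.05. For MCD1 the value in bmh1∆ moves from -2.41 to -4.95, past the -3.67 of bmh2∆.

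Whether the strains differed in this response was tested with the interaction. No member passed (0 of 5278 genes passed, and 3.20% of all genes and 1 member, POL1, had an unadjusted limma p under 0.05). The median difference of the members, bmh2∆ minus bmh1∆, was -0.41 with all libraries and 0.22 without GTCACG and B0, so its sign depends on them. Quantile normalization and median-of-ratios scaling gave -0.29 and -0.25, with the median of all genes moving from -0.12 to 0.03. A larger response in either strain was therefore not detectable.

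Between the strains themselves no member passed at either KCl concentration, where 0.0568% of all genes passed at 50 mM and 0.0189% at 0 mM KCl. At 50 mM KCl 10 members had an unadjusted limma p under 0.05 (16.6% of all genes), 8 of them lower in bmh2∆, and at 0 mM KCl 13 (11.5% of all genes), all lower in bmh2∆. At 50 mM KCl 8 members were lower in bmh2∆ without overlap and 5 were higher (9.28% and 10.7% of all genes). CSM3, named after its values were seen, was lower in bmh2∆ at both concentrations without overlap. It was at 58.9, 49.4 and 42.9 RPM in bmh1∆ and at 16.7, 10.5 and 7.82 RPM in bmh2∆ at 50 mM KCl (log2 difference -2.07, SE 0.45, limma adjusted p = 0.15). At 0 mM KCl 14 members were lower in bmh2∆ without overlap and 1 was higher (11.8% and 6.57% of all genes), among them all 4 fork protection genes. These counts rest on GTCACG and B0: without them 3 members had an unadjusted limma p under 0.05 in the lower and 5 in the higher direction (19.6% of all genes in either direction), and the members below 0 went from 39 to 29, with a median of -0.07 in place of -0.49. With the run as a term as well, the median was 0.25 with 23 members below 0. Leaving out B50 gave 10 members lower and 1 higher in bmh2∆ at 50 mM KCl (14.1% and 11.3% of all genes), when all bmh1∆ libraries left there are of lane 1. Leaving out TGCACT gave 3 lower at 0 mM KCl (0.417% of all genes), when the bmh1∆ libraries left there are GTCACG and B0. Over all 12 libraries, the 4 of lane 1 lay above the 8 lettered ones for 8 members (15.1%, against 22.0% of all genes) and below them for 1, RNR4 (12.2% of all genes). Members of this kind, named after their values were seen, include the polymerase epsilon subunit DPB3, at 28.6 to 62.0 RPM in lane 1 and 0.31 to 3.85 RPM in the lettered libraries, and ORC4, at 45.7 to 79.0 and 4.44 to 10.5 RPM. RNR4 was at 51.7 to 212 RPM in lane 1 and at 868 RPM or more in the lettered libraries, B50 and B0 of bmh1∆ included. For such genes strain and run cannot be told apart by the pooled difference.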

How the data were processed

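The deposited table holds RPM values, which the authors made by trimming reads and counting SAGE tags per gene, per the file headers; each library sums to 1000000 RPM. How tags were matched to genes, and on which build, is not given in the sources used here. If 1 step is 1 read, depth was 6237952 to 107579363 reads per library, and the shallowest resolved 0.160 RPM. The libraries' names give strain and KCl but no replicate number, and nothing states whether replicates are separate cultures, so p-values measure the spread between these libraries.

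One limma fit (version 3.58.1, R 4.3.3; trend and robust) of log2(RPM + 1) over 12 libraries and 5278 genes with at least 3 RPM in 3 libraries gave 5 two-sided comparisons, with Benjamini-Hochberg adjustment over all genes. An exact permutation test of 3 against 3 libraries cannot go below 0.1 and was not used. Members were grouped into 8 roles. Values per library are given for members that passed in any comparison and for the member with the largest mean starvation change of each role. Members, lists and tests were chosen with earlier results of these data known. Start codons and the windows before them came from RefSeq build R64 with its annotation, which need not be the build of the authors. Alternatives were the pseudocount, the filter, the scaling, the fitting options, the groups fitted, the run, blocks and leaving out libraries. Python 3.11.15, NumPy 2.4.6, pandas 2.3.3 and Matplotlib 3.10.9 were used.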

Additional observations from a re-analysis of the deposited data

How the results depend on the processing

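Under pseudocounts of 0.5 and 5 RPM, a filter of 10 RPM or none, quantile normalization, median-of-ratios scaling and limma without trend and robust, the count of members lower in starved bmh2∆ stayed within 1.5 times of 8, and no called change reversed under any alternative, while RAD27 in bmh1∆, not called, ranged from -2.91 to 0.05. The count moved to 23 (2 higher) with only the groups compared (12.1% of all genes lower), to 19 (1 higher) with the sequencing run as a term (9.49%), to 14 without B0 and GTCACG (3.35%), and from 0 to 14 over the fits that leave out 1 library, with 0 to 1 higher. In bmh1∆ it was 5 with the run as a term (1.17%) and 6 without B0 and GTCACG (1.08%). Over the fits that leave out 1 library, 0.0568% to 6.10% of all genes were lower in bmh2∆. The interaction kept 0 members throughout. Between the strains, leaving out 1 library gave 0 to 10 members lower and 0 to 1 higher at 50 mM KCl. Of all genes 0.0189% to 14.1% were then lower and 0 to 11.3% higher. At 0 mM KCl it gave 0 to 3 members lower (0.0189% to 0.417% of all genes). The run as a term without B0 and GTCACG, added after seeing the data, gave 19 lower in bmh1∆ (264 genes in all), 22 lower and 1 higher in bmh2∆ (11.9% and 12.2% of all genes), and 4 higher and 4 lower between the strains at 50 mM KCl (13.5% and 2.82%). With lanes 5 and 6 as a term in bmh2∆ alone, also added then, the count was 10 (3.68%). The cause of these moves was not tested.

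The replicate block by culture letter in bmh2∆ alone gave 19 members lower and 1 higher (11.6% and 12.2% of all genes). By the methods of the study the starved and unstarved cultures came from the same overnight culture, so libraries of 1 letter may be pairs. Deviations from the group means correlated at 0.07 for C50 and C0, 0.25 for D50 and D0 and -0.29 for E50 and E0. For unlike letters they correlated at -0.595 to 0.533. With so few libraries these values cannot decide whether the libraries are pairs, and the main fit used no pairing. In bmh1∆ B50 and B0 alone share a letter, and no block by letter was fitted there. No count model was run: values below 100 steps were whole multiples of the step, but the smallest value was 2 steps in each library, so a step was not taken as 1 read with certainty. The lettered bmh1∆ libraries alone are 1 against 1 and give no test. Depth limits low genes, with RNR1 at 1.084 to 1.397 RPM in starved bmh2∆.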
